A study of Mus musculus with 6 samples.

Results

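The 10 genes described here encode the fibulins Efemp1, Efemp2, Fbln1, Fbln2 and Fbln5, elastin (Eln), the fibrillins Fbn1 and Fbn2, and the microfibril-associated glycoproteins Mfap2 and Mfap5. They were chosen by name, as the core components of elastic fibers, with earlier results of these data known. They are 10 of the 54752 genes in the count table. All 10 names matched a row of the table. The fall of Efemp1 under TGF-β1 with DMSO was already known when the genes were chosen, so the values of Efemp1 against vehicle are given as a description with no test.

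Elastic fibers consist of a core of crosslinked elastin laid down on a scaffold of fibrillin microfibrils. Fibulins are secreted glycoproteins that bind elastin, fibrillins and lysyl oxidases and help to place elastin on the scaffold. In fibrotic lung, TGF-β1 changes how fibroblasts make collagen and elastic fibers as they turn into myofibroblasts, the contractile cells marked by α-smooth muscle actin.

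The genes were measured by RNA-seq of rRNA-depleted RNA from NIH/3T3, an immortalised fibroblast line from mouse embryos, with 2 replicates in each of 3 groups. One group received vehicle, which the labels give as PBS. The other groups received TGF-β1 at 1 ng/ml, either with DMSO or with BI6727 at 5 μM, an inhibitor of the mitotic kinase PLK1, and the treatments lasted 72 h. No library with DMSO and without TGF-β1 was analysed here, so TGF-β1 and DMSO cannot be told apart in the comparisons with vehicle. Nothing in the labels says that replicates came from separate cultures, so p-values measure the spread between these samples, which may be technical.

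The libraries held 18362378 to 24452153 counts on genes. The DMSO replicates stood apart from each other more than those of the other groups, with an SD of the log2 difference between replicates of 0.38 over the tested genes, against 0.16 for vehicle and 0.15 for BI6727. Acta2, which encodes α-smooth muscle actin and served as the check of the treatment, was at 92.1 and 100.2 normalized CPM in vehicle, 476 and 473 with DMSO, and 348 and 326 with BI6727. Normalized CPM are counts scaled to a common library size (CPM) with edgeR's TMM factors. The 7 fibroblast markers examined were all detected in every library, whereas Krt5, Kdr and Adgre1, which mark epithelial, endothelial and immune cells, had 0 counts in all 6, and no other marker of these cells was above 4.50 normalized CPM. The summed level of the 5 epithelial markers, 4 with counts, was 0.363 to 0.501 normalized CPM in vehicle, 1.93 to 1.98 with DMSO and 0.455 to 1.00 with BI6727. That of the 4 endothelial markers, 3 with counts, was 0.312 to 0.910 in vehicle, 2.89 to 3.77 with DMSO and 2.00 to 2.65 with BI6727, and that of the 4 immune markers, 3 with counts, was highest in vehicle (3.79 to 4.69). Of the chondrocyte markers, Sox9 was at 126 to 188 normalized CPM over the 6 libraries and was not called in any comparison, and Acan and Col2a1 were at most at 1.26. The other 4 smooth muscle markers (Tagln, Cnn1, Myh11 and Des) were at most at 1.91 and did not follow Acta2 as a group, Cnn1 being lower in all TGF-β1 libraries than in vehicle. Of the fibroblast markers, Pdgfra was called lower than in vehicle in both TGF-β1 groups, and Pdgfrb and Thy1 with BI6727 as well. The part of these markers in the results was not tested.

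The promoters of Efemp1, Fbln5 and Efemp2 are shown because these fibulins had, in this order, the largest fall with TGF-β1, the next largest fall among the tested genes of the set, and no detectable difference. Each line holds the 250 bases before 1 RefSeq start of the gene in GRCm38.p6, read 5′ to 3′ along the gene, with matches to the searched motifs in capitals. The Efemp1 window is chr11:28852955-28853204 on the plus strand, the Fbln5 window is chr12:101819120-101819369 on the minus strand, and the Efemp2 window is chr19:5473696-5473945 on the plus strand.
Efemp1: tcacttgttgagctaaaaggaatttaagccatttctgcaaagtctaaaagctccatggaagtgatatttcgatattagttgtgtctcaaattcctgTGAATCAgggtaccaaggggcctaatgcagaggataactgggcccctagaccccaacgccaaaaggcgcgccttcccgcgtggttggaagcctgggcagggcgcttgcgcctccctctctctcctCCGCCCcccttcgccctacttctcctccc
Fbln5: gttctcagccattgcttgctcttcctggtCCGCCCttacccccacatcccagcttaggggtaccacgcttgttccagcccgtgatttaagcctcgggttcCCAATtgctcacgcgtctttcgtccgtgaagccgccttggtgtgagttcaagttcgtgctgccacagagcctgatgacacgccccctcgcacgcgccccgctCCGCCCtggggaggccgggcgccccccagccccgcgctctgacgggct
Efemp2: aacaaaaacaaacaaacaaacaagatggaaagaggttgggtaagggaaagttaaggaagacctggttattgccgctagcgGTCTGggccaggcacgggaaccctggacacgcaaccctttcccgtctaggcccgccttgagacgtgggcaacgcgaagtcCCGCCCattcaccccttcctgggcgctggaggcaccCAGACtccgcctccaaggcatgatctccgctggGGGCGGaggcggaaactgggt

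The motifs searched on both strands were CAGAC (bound by SMADs), TGANTCA (AP-1), GGAATG (TEAD), GGGCGG (the GC box of SP and KLF factors), CCAAT (NF-Y), TATAAA (the TATA box) and the CArG box of SRF. TGANTCA allows any base at N and is looser than the AP-1 consensus, which has C or G there. The Efemp1 window held a TGANTCA match (TGAATCA) at -154 and a GGGCGG match at -29 from the start. It held no match to the other motifs searched. The TGANTCA match is the less common of these, being present in 6.75% of the 32851 promoter windows of the RefSeq table, whereas GGGCGG is present in 32.7%. The Fbln5 window held GGGCGG at -221 and -48 and CCAAT at -150, the last found in 33.9% of all windows. CAGAC, found in 42.2% of all windows, was present in the Efemp2 window at -170 and -54, beside GGGCGG at -90 and -21. None of these 3 windows held the TEAD motif, the TATA box or the CArG box, which were found in 12.6%, 12.4% and 1.47% of all windows. RefSeq lists other starts for 2 of these genes, and their windows held other motifs. The window of a second start of Fbln5 (chr12:101818485-101818734) held CAGAC at -199 and -15 and neither GGGCGG nor CCAAT. The windows of the other 2 starts of Efemp2 (chr19:5474440-5474689 and chr19:5474485-5474734) overlap, and each held 5 GGGCGG matches and no CAGAC. Which motifs a gene holds thus depends on the start, and which start these cells used was not tested. Such matches are letters in a window and were not tested as binding sites.

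Of the short fibulins, Efemp1 and Fbln5 were lower in every TGF-β1 library than in either vehicle library, whereas the ranges of Efemp2 overlapped across the groups. Efemp1 (fibulin-3; chr11:28853204-28926743 in mm10, 11 exon blocks) is a matrix glycoprotein of basement membranes and elastic tissues. It was at 383 and 328 normalized CPM in vehicle, 23.4 and 23.3 with TGF-β1 and DMSO, and 20.7 and 24.1 with TGF-β1 and BI6727. The 4 TGF-β1 libraries therefore lay in a narrow band far below the vehicle libraries, and the BI6727 libraries enclosed the DMSO libraries. The level was 15.2-fold lower with DMSO than in vehicle (log2 fold change -3.93, SE 0.13) and 15.8-fold lower with BI6727 than in vehicle (-3.98, SE 0.13). Between BI6727 and DMSO the log2 difference was -0.05 (SE 0.12, adjusted p = 0.939, edgeR quasi-likelihood test with Benjamini-Hochberg adjustment over 9518 genes). In bulk RNA, fewer cells of a type and less RNA per cell cannot be told apart. The comparisons with vehicle share the vehicle libraries, and both comparisons of the DMSO group share its libraries, so they are not independent of each other.

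**Figure D1:**
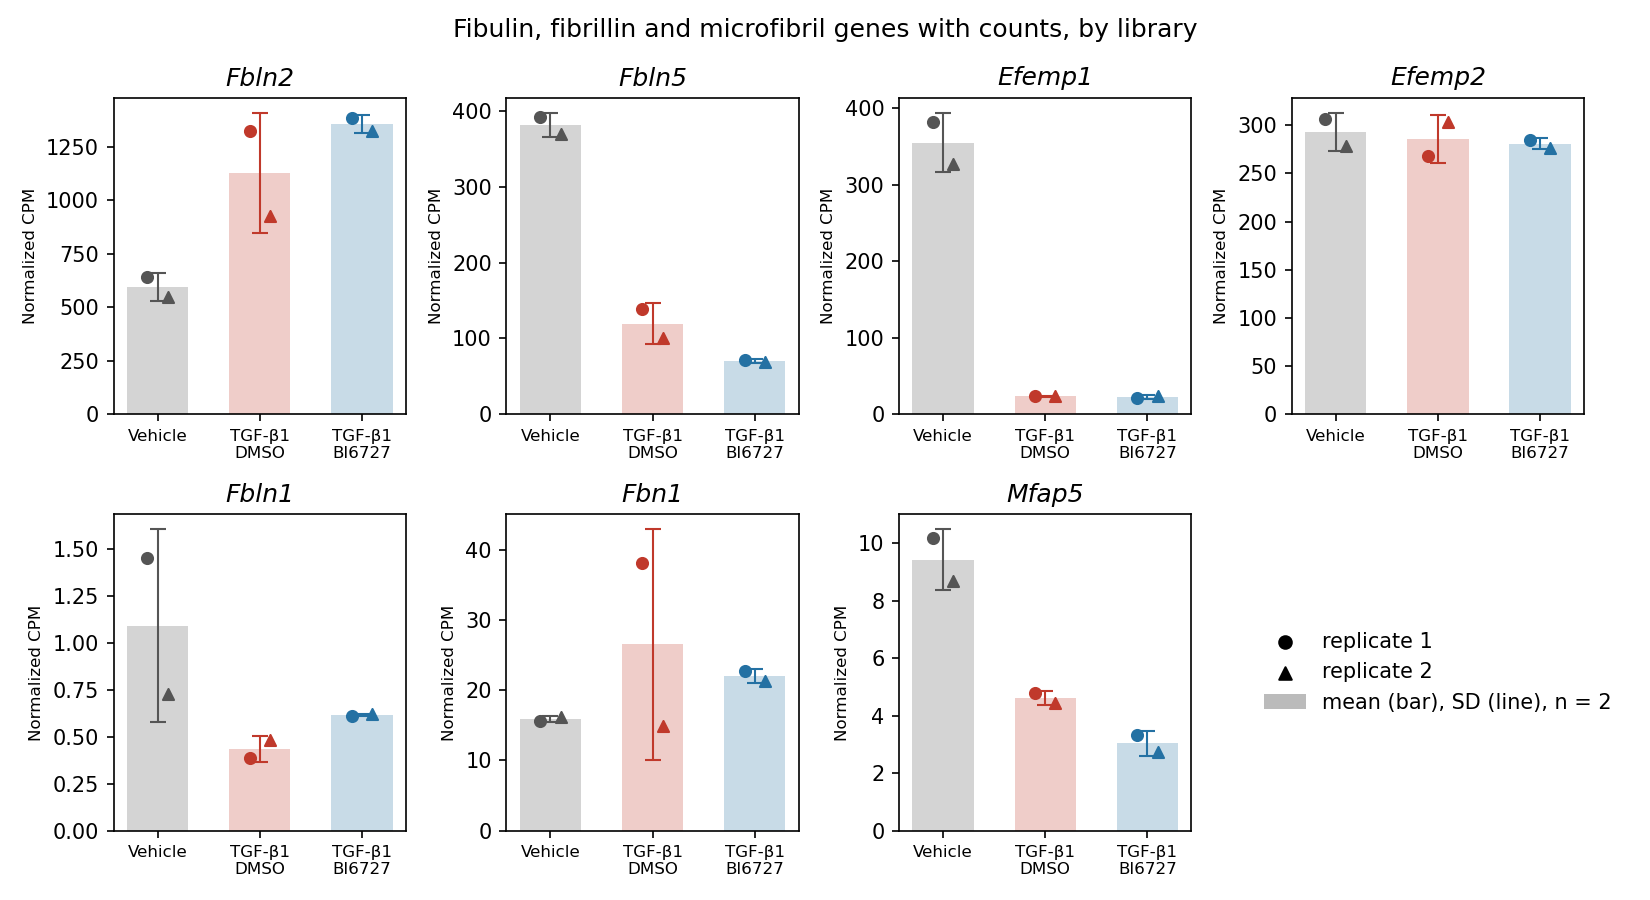
Normalized CPM (linear axes, a scale for each gene) of the 7 genes with counts, by group. Points are libraries (circle, replicate 1; triangle, replicate 2), bars are means and lines SD (n = 2). Efemp1, Fbln5, Mfap5 and, at few counts, Fbln1 lie below vehicle in all 4 TGF-β1 libraries. Fbln2 lies above, and the DMSO replicates of Fbn1 lie at 38.1 and 14.9.

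Fbln5 (fibulin-5; chr12:101746565-101819055, 12 exon blocks) is a secreted protein that tethers elastin to microfibrils and to integrins on the cell surface. It was at 393 and 370 normalized CPM in vehicle, 138 and 100.5 with DMSO, and 72.1 and 68.7 with BI6727. The groups did not overlap, and the BI6727 libraries were the lowest. Against vehicle, Fbln5 was 3.19-fold lower with DMSO (log2 fold change -1.68, SE 0.15, adjusted p = 0.000458) and 5.42-fold lower with BI6727 (-2.44, SE 0.16, adjusted p = 0.000116). Both differences were called, which required more than a 2-fold difference at an adjusted p below 0.01. The call with DMSO was lost without vehicle replicate 1 (log2 fold change -1.64, adjusted p = 0.0146) and without vehicle replicate 2 (-1.72, adjusted p = 0.0111).

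Under TGF-β1, Fbln5 was 1.70-fold lower with BI6727 than with DMSO (log2 fold change -0.76, SE 0.15). This difference had an unadjusted p of 0.00136 and an adjusted p of 0.485 in edgeR's quasi-likelihood test, and did not pass. Its adjusted p depended on the test: it was 0.00362 in DESeq2, 0.0147 after a correction for the dependence on gene length within libraries, and between 0.357 and 0.981 in the other fits that left out no single library. Without 1 DMSO library, edgeR gave log2 fold changes of -0.51 (without replicate 1) and -0.99 (without replicate 2). Such fits take the spread from the vehicle and BI6727 replicates alone. Those lay closer together (SD of the log2 difference 0.16 and 0.15) than the DMSO replicates (0.38), so no p-value is given. Without any other library the difference lay between -0.80 and -0.72.

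Efemp2 (fibulin-4; chr19:5473973-5481853, 11 exon blocks), which brings lysyl oxidase to tropoelastin, was at 307 and 279 normalized CPM in vehicle, 268 and 303 with DMSO, and 285 and 277 with BI6727. The ranges of the 3 groups overlapped. Its log2 fold change was -0.03 (SE 0.10, adjusted p = 0.825) with DMSO against vehicle, -0.06 (SE 0.10, adjusted p = 0.714) with BI6727 against vehicle, and -0.03 (SE 0.10, adjusted p = 0.966) with BI6727 against DMSO. These differences were smaller than their errors, and the sign changed when single libraries were left out. Of the windows of 50 bases in its transcripts, 2.92% also occur in other genes, against 0 for the other fibulins of the set.

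Of the longer fibulins, Fbln2 was higher with TGF-β1 and Fbln1 was close to the limit of detection. Fbln2 (fibulin-2; chr6:91212455-91272540, 20 exon blocks) binds fibronectin, fibrillin and tropoelastin in developing and remodelling tissue. It was at 641 and 550 normalized CPM in vehicle, 1326 and 929 with DMSO, and 1386 and 1326 with BI6727. All 4 TGF-β1 libraries lay above the vehicle libraries, and DMSO replicate 2 was the lowest of them. With BI6727 against vehicle the level was 2.28-fold higher (log2 fold change 1.19, SE 0.18, adjusted p = 0.00392), which passed. With DMSO against vehicle the log2 fold change was 0.92 (1.89-fold, SE 0.18, adjusted p = 0.0115), just outside both thresholds. In the other fits that left out no library, the adjusted p ranged from 5.24e-06 in DESeq2 to 0.0330 in edgeR on the 2 groups compared. The log2 fold change in these fits lay between 0.908 and 0.996, below the 2-fold limit.

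The size of the Fbln2 difference with DMSO against vehicle depended on single DMSO libraries. Its log2 fold change was 1.17 without DMSO replicate 2 and 0.64 without DMSO replicate 1. With BI6727 against vehicle, it lay between 1.08 and 1.30 whichever library was left out. The call was lost without either vehicle library or either BI6727 library, fits in which a compared group kept a single library. Under TGF-β1, BI6727 and DMSO differed by 0.27 on the log2 scale (SE 0.18, adjusted p = 0.811), and both BI6727 libraries lay at or above the higher DMSO library.

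Fbln1 (fibulin-1; chr15:85205949-85286535, 19 exon blocks), a blood and matrix glycoprotein, had 28 and 16 counts in vehicle, 8 and 10 with DMSO, and 11 and 15 with BI6727. It was below the filter of 10 CPM in more than 3 libraries and was tested among the 14604 genes kept by edgeR's filterByExpr. Its log2 fold change was -1.30 (SE 0.55, adjusted p = 0.130) with DMSO against vehicle and -0.79 (SE 0.52, adjusted p = 0.325) with BI6727 against vehicle. Between BI6727 and DMSO it was 0.51 (SE 0.58, adjusted p = 0.882). At this depth no difference of Fbln1 was detectable.

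**Figure D2:**
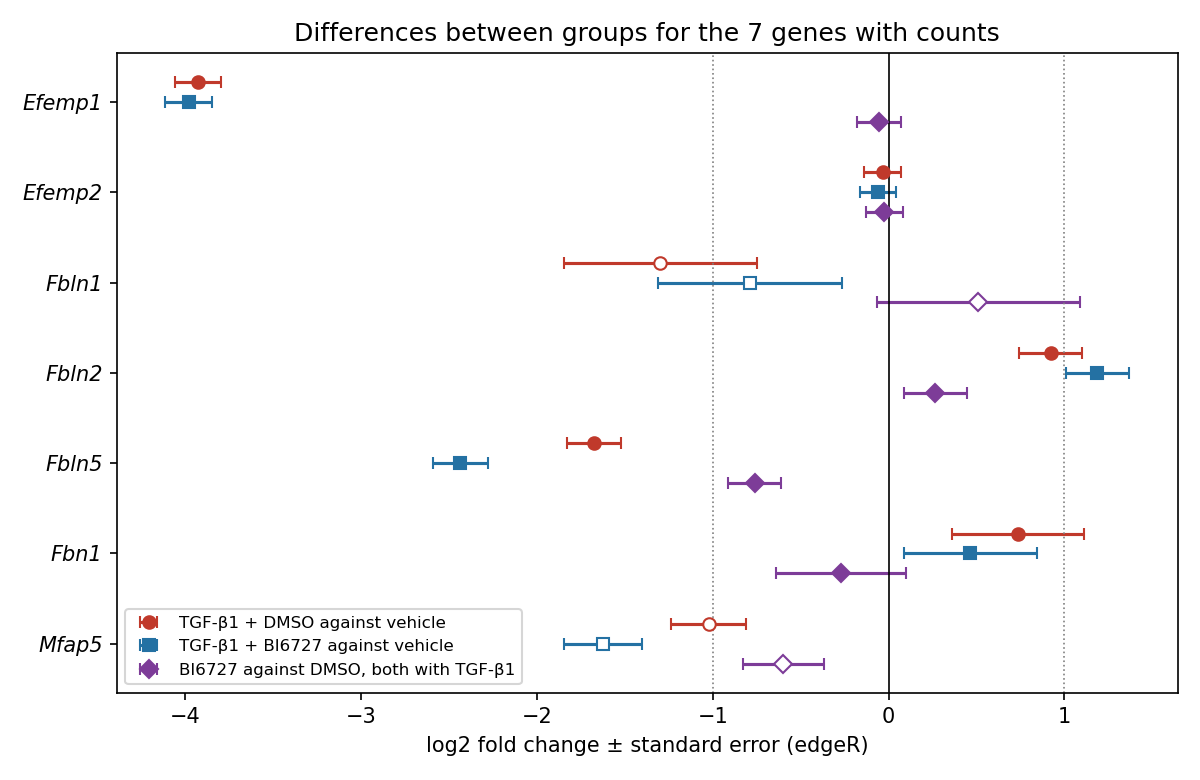
Log2 fold change ± SE (edgeR, x axis) of the 7 genes with counts in the 3 comparisons, with dotted lines at the 2-fold threshold. Open symbols mark Fbln1 and Mfap5, which were tested with filterByExpr. Efemp1 lies near -4 against vehicle in both TGF-β1 groups and near 0 between them, whereas Fbln5 is below 0 in all 3 comparisons.

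Elastin, the second fibrillin and one of the microfibril-associated glycoproteins had no counts. Eln (chr5:134702593-134747323), which encodes tropoelastin, the soluble subunit of the fiber core, was at 0 counts in all 6 libraries. Fbn2, a fibrillin prominent in developing tissue, and Mfap2 (chr4:141010418-141015984), which binds fibrillin and TGF-β family ligands, were also at 0 counts in all 6 libraries. A count of 0 allows up to 3 counts, or 0.124 to 0.167 normalized CPM by library, which covers counting error only. No fold change was computed for these 3 genes.

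Fbn1 (fibrillin-1; chr2:125300594-125507993, 65 exon blocks), the main structural protein of microfibrils, was at 15.6 and 16.2 normalized CPM in vehicle, 38.1 and 14.9 with DMSO, and 22.7 and 21.3 with BI6727. The DMSO replicates lay on opposite sides of all other libraries, and the BI6727 libraries lay above vehicle. Its log2 fold change was 0.74 (SE 0.38, adjusted p = 0.194) with DMSO against vehicle and 0.47 (SE 0.38, adjusted p = 0.411) with BI6727 against vehicle, and neither passed. BI6727 against DMSO gave -0.27 (SE 0.37, adjusted p = 0.9003).

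Single DMSO libraries decided the direction for Fbn1. With DMSO against vehicle the log2 fold change was -0.10 without DMSO replicate 1 and 1.27 without DMSO replicate 2. With BI6727 against DMSO it was 0.56 without DMSO replicate 1 and -0.81 without DMSO replicate 2. The trend of log2 level on gene length, at the length of Fbn1, was -0.33 in DMSO replicate 2 and 0.10 in DMSO replicate 1. With this trend removed, the log2 fold change of Fbn1 was 0.89 (adjusted p = 0.0191) with DMSO against vehicle, which did not pass, and -0.33 (adjusted p = 0.654) with BI6727 against DMSO. A gene on the opposite strand, Gm9913, overlaps 20.1% of the exonic length of Fbn1, and the strand setting of the counting is not given in the sources used here, so reads of the 2 genes cannot be told apart there.

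Mfap5 (chr6:122505845-122529290, 11 exon blocks), a microfibril-associated glycoprotein that binds fibrillins and elastic fibers, had 196 and 191 counts in vehicle, 99 and 92 with DMSO, and 60 and 66 with BI6727. These are 10.2 and 8.69 normalized CPM in vehicle, 4.78 and 4.43 with DMSO, and 3.34 and 2.73 with BI6727. The groups did not overlap and stood in the same order as for Fbln5. In the fit with filterByExpr, Mfap5 was 3.08-fold lower with BI6727 than in vehicle (log2 fold change -1.62, SE 0.22, adjusted p = 0.00145), which passed, where 3.71% of genes were called lower. With DMSO against vehicle it was -1.02 (SE 0.21, adjusted p = 0.0115) and did not pass, where 3.23% of genes were called lower. BI6727 against DMSO gave -0.60 (SE 0.23, unadjusted p = 0.0293, adjusted p = 0.655). The call with BI6727 against vehicle was lost without any of its 4 libraries, at log2 fold changes between -1.77 and -1.48. The difference with DMSO against vehicle passed in DESeq2 (adjusted p = 0.00540). It also passed in edgeR with a filter of 10 counts in total (0.00973) and with the gene length trend removed (0.00480). It did not pass in the other fits that left out no library, where the adjusted p was at most 0.0245.

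Counted together, 5 of the 10 genes passed the filter of 10 CPM in more than 3 libraries, namely Efemp1, Efemp2, Fbln2, Fbln5 and Fbn1, each of them above 10 normalized CPM in every library. Efemp1, whose fall was known beforehand, is left out of the counts that follow. With DMSO against vehicle, 0 of the other 4 were called higher and 1 lower (Fbln5), where 2.56% and 2.53% of the 9518 tested genes were called higher and lower. The 0 came from edgeR, DESeq2 also called 0 higher, and of the 4 genes Fbln2 and Fbln5 had an unadjusted p below 0.05. This 0 depended on DMSO replicate 2. Without that library the log2 fold changes of Fbln2 and Fbn1 were 1.17 and 1.27, above the 2-fold limit. Without DMSO replicate 1 they were 0.64 and -0.10. With BI6727 against vehicle, 1 was called higher (Fbln2) and 1 lower (Fbln5), where 2.34% and 2.96% of genes were called. The median log2 fold change of the 4 was 0.35 with DMSO and 0.20 with BI6727, against medians over all tested genes of -0.0045 and 0.0029, and the 4 genes did not move in a common direction.

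With BI6727 against DMSO, 0 of the 5 genes were called in either direction by edgeR, where 0% of all tested genes were called higher and 0% lower, and DESeq2 called 0 of the 5 as well. At an unadjusted p below 0.05, 1 of the 5 was lower (Fbln5), where 4.52% of all tested genes were. Fbln5 was also the 1 gene of the 5 whose BI6727 libraries both lay below both DMSO libraries, which 17.1% of all tested genes did. The median log2 fold change of the 5 was -0.05, against -0.0028 over all tested genes.

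Compared per length, 4 of the 5 fibulins were the most abundant genes of the set in all groups, and their order changed with TGF-β1. The exonic length covers all exons of a gene in the count table, which need not match the transcript expressed. Without division by length, the vehicle means were 595 normalized CPM for Fbln2, 381 for Fbln5, 355 for Efemp1 and 293 for Efemp2. In vehicle, the level per kb of exonic length was highest for Efemp1 (174±19.1 normalized CPM per kb, n=2), followed by Efemp2 (111±7.47), Fbln2 (93.5±10.0) and Fbln5 (55.2±2.30). The library ranges of these neighbours in the order did not overlap. Mfap5 (2.63±0.293), Fbn1 (1.31±0.0389) and Fbln1 (0.250±0.118) were far lower on the same scale. With DMSO, Fbln2 was the highest (177±44.1), followed by Efemp2 (108±9.37), Fbln5 (17.3±3.87) and Efemp1 (11.4±0.0398). With BI6727, Fbln2 (213±6.60) and Efemp2 (106±2.26) were again the highest, while Efemp1 (11.01±1.16) and Fbln5 (10.2±0.345) overlapped. The ranges of Fbn1 and Mfap5 overlapped in the DMSO group, where Fbn1 was at 2.19±1.35 and Mfap5 at 1.28±0.0691.

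The make-up of the fibulin transcripts, taken as the share of each gene in the summed level per kb of the 5 fibulins, was examined after the values had been seen and is a description. Efemp1 held 40.7% and 39.6% of the sum in vehicle, 3.36% and 3.98% with DMSO, and 2.94% and 3.53% with BI6727. Fbln2 held 21.8% and 21.3% in vehicle, 61.0% and 50.9% with DMSO, and 62.9% and 62.2% with BI6727. On this scale, Efemp1 was the largest contributor in vehicle and Fbln2 in each TGF-β1 library. In normalized CPM without division by length, Fbln2 was the highest of the fibulins in every library, vehicle included. The sum itself was 461 and 406 normalized CPM per kb in vehicle, 341 and 286 with DMSO, and 346 and 335 with BI6727. It was lower in all TGF-β1 libraries than in vehicle, but it includes Efemp1, whose fall was known beforehand. Per kb, Efemp1 was at 188 and 161 in vehicle and between 10.2 and 11.8 with TGF-β1. Fbln2 was at 100.6 and 86.4 in vehicle and between 146 and 218 with TGF-β1. Fbln1 and Fbln5 were lower in all TGF-β1 libraries, and the ranges of Efemp2 overlapped. The fall of the sum was therefore not shared by all fibulins.

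Fbln5 held 12.3% and 13.2% of the sum in vehicle, 5.87% and 5.07% with DMSO, and 3.02% and 2.97% with BI6727. The ratio of Fbln2 to Fbln5 per kb was 1.77 and 1.61 in vehicle, 10.4 and 10.0 with DMSO, and 20.9 in both BI6727 libraries. Replicates lay close together in this ratio, also in the DMSO group, where the levels of Fbln2 and Fbln5 themselves differed between replicates by 0.51 and 0.46 on the log2 scale, both higher in replicate 1. The ratio was chosen after its values were seen and is given with no test.

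**Figure D3:**
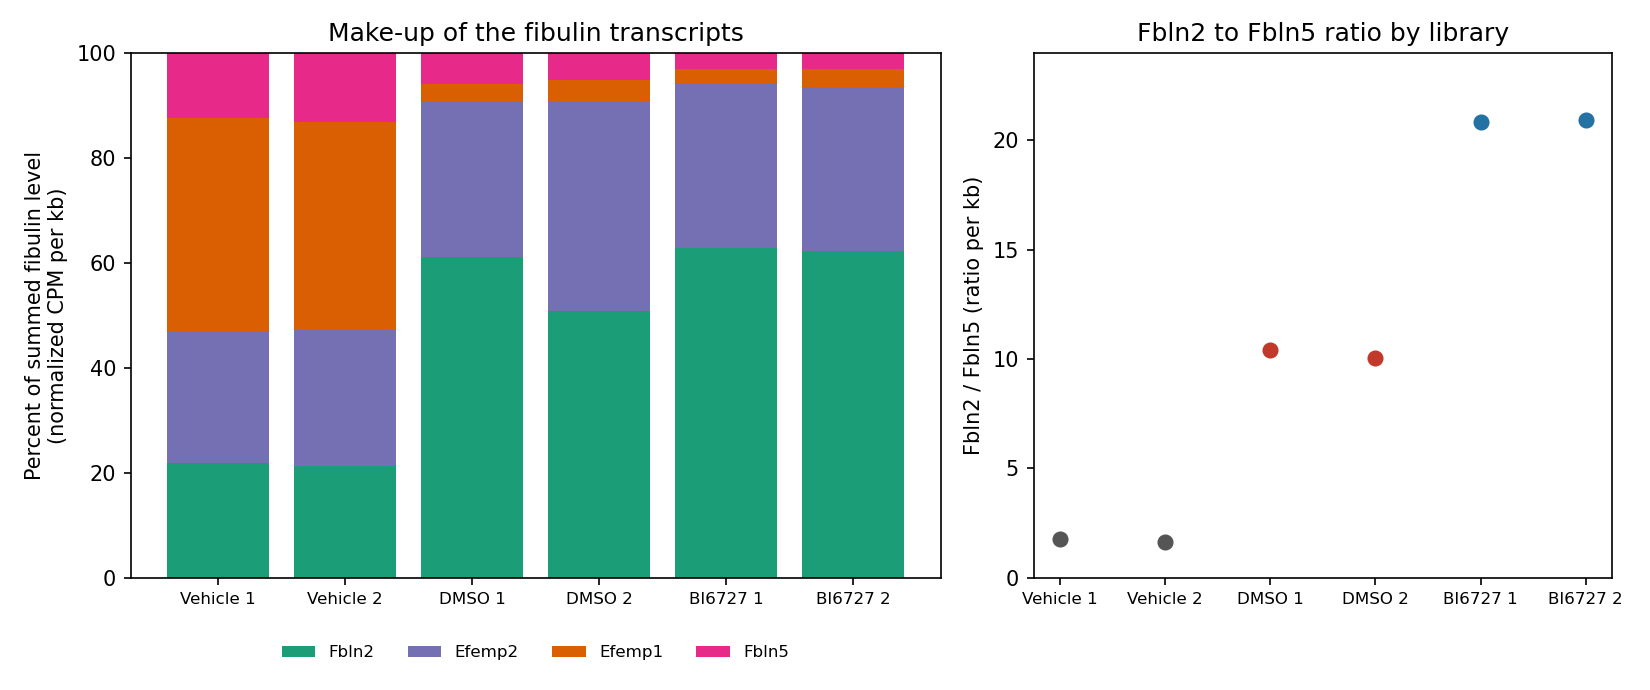
Left, percent of the summed fibulin level (normalized CPM per kb) held by each of 4 fibulins in each library. Fbln1, at most 0.0721% of the sum, is not visible. Right, the ratio of Fbln2 to Fbln5 per kb in each library, which lies at 1.77 and 1.61 in vehicle, 10.4 and 10.0 with DMSO and 20.9 in both BI6727 libraries.

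Genes whose products help to assemble, crosslink or break down elastic fibers were taken from a list of 45 by role. Of these, 42 had counts and 26 passed the filter of 10 CPM, Hmcn2 only through the libraries in which it was high. Of the other 25, 2 were called higher and 3 lower with DMSO against vehicle, where 2.56% and 2.53% of all tested genes were called, and 2 higher and 4 lower with BI6727 against vehicle, where 2.34% and 2.96% were called. The counts called against vehicle were smaller, in both directions and both comparisons, when either vehicle library was left out, so that vehicle kept a single library. Between BI6727 and DMSO 0 were called by edgeR and 0 by DESeq2 (1 was called higher by edgeR without DMSO replicate 1). At an unadjusted p below 0.05, 3 were lower with BI6727 (Loxl1, Adamtsl5 and Ctsk), where 4.52% of all tested genes were. The median log2 fold change of the 25 was 0.08 with DMSO against vehicle, 0.03 with BI6727 against vehicle and -0.10 with BI6727 against DMSO, against -0.0045, 0.0029 and -0.0028 over all tested genes.

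Among the crosslinking enzymes, Loxl1 fell in both TGF-β1 groups and Lox with BI6727. Loxl1, the lysyl oxidase that Fbln5 binds and that crosslinks tropoelastin, was at 233 and 196 normalized CPM in vehicle, 105 and 85.6 with DMSO, and 66.7 and 70.4 with BI6727. The groups did not overlap, and the order was that of Fbln5. Its log2 fold change against vehicle was -1.17 (SE 0.13, adjusted p = 0.00125) with DMSO and -1.65 (SE 0.14, adjusted p = 0.000284) with BI6727. Lox, the founding lysyl oxidase, had log2 fold changes of -0.69 (SE 0.18, adjusted p = 0.0313) with DMSO, which did not pass, and -1.02 (SE 0.18, adjusted p = 0.00720) with BI6727, which did. Of the 6 genes of crosslinking and copper supply, 4 were tested, and Loxl3 and Atp7a were not called in either comparison.

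Among the other associated proteins, 8 of 15 were tested, and 2 fell in both comparisons with vehicle. Hmcn2, a hemicentin related to the fibulins, was at 4.26 and 4.23 normalized CPM in vehicle, 20.0 and 21.5 with DMSO, and 18.1 and 21.1 with BI6727. It passed the filter only through the TGF-β1 libraries, in which it was high, so its log2 differences of 2.29 and 2.21 are given with no test. Emilin2, a glycoprotein of the elastin and microfibril interface, had log2 fold changes of -1.32 (SE 0.11, adjusted p = 0.000341) with DMSO and -1.42 (SE 0.11, adjusted p = 0.000212) with BI6727. Dcn, the collagen-binding proteoglycan decorin, had -1.97 (SE 0.17, adjusted p = 0.000374) with DMSO and -1.93 (SE 0.17, adjusted p = 0.000352) with BI6727.

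Furin, a protease that cleaves profibrillin and the TGF-β1 precursor, rose by 1.12 on the log2 scale with DMSO (SE 0.14, adjusted p = 0.00190) and by 1.01 with BI6727 (SE 0.14, adjusted p = 0.00272). Of the 3 genes of the elastin receptor complex, all tested, Neu1 rose with DMSO (log2 fold change 1.29, SE 0.11, adjusted p = 0.000355) and with BI6727 (1.30, SE 0.11, adjusted p = 0.000316), and Glb1 and Ctsa were not called. Neu1 encodes a lysosomal sialidase that also works outside this complex. None of the 4 latent TGF-β binding proteins, the 4 tested elastin-degrading enzymes or the 2 tested ADAMTS and ADAMTS-like genes was called in any of the 3 comparisons by edgeR. Adamts6 and Adamtsl4 were below the filter and are given with no test. Adamts6 had means of 2.08 normalized CPM in vehicle, 12.7 with DMSO and 10.7 with BI6727, and Adamtsl4 of 16.3, 6.05 and 5.90. Tnxb, Mmp9 and Loxl4 were below the filter as well and are also given with no test. Tnxb had means of 16.6 normalized CPM in vehicle, 6.44 with DMSO and 6.73 with BI6727. The means of Mmp9, an elastin-degrading enzyme, were 5.80, 8.20 and 15.9 in the same order, and those of Loxl4 were 7.20, 5.88 and 5.97. The remaining untested accessory genes were at most at 0.787 normalized CPM in any library.

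**Figure D4:**
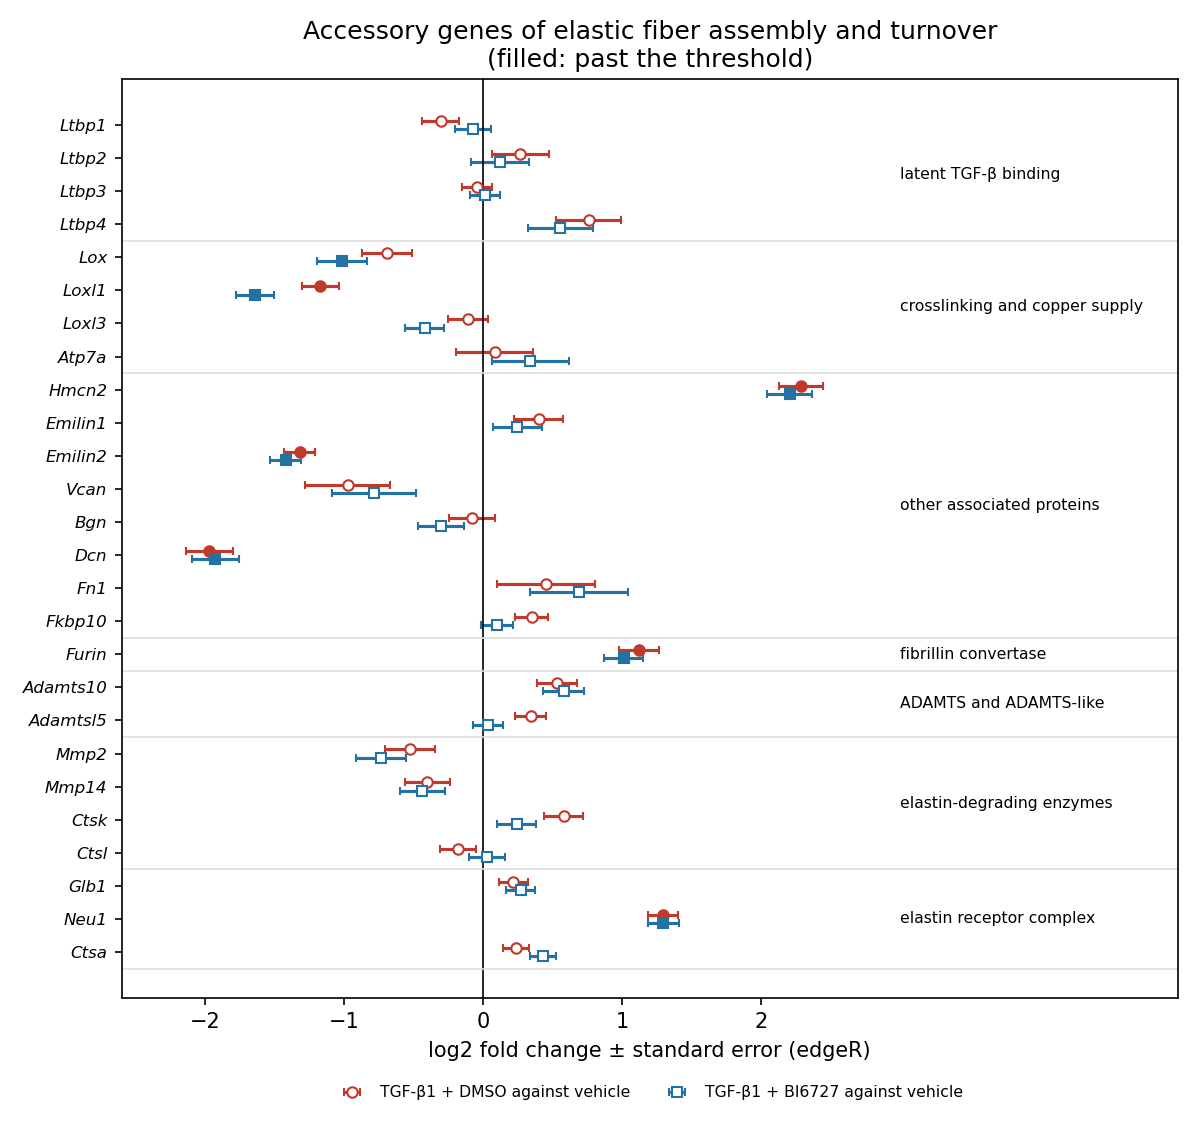
Log2 fold change ± SE (edgeR, x axis) against vehicle of the 26 tested accessory genes, grouped by role, for TGF-β1 with DMSO (circles) and with BI6727 (squares). Filled symbols lie past the threshold: Furin and Neu1 above 0 and Loxl1, Emilin2 and Dcn below 0 in both, and Lox below 0 with BI6727. Hmcn2 is also filled, but passed the filter only through the libraries in which it was high.

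The genes whose profile over the 6 libraries lay nearest to Efemp1, by the Euclidean distance of log2 CPM centred on each gene's mean, were C1s1 (0.831), Adam23 (1.08) and C3 (1.19). C1s1 and C3 encode complement proteins and Adam23 an integrin-binding membrane protein. The centred log2 level of Efemp1 was 2.75 and 2.52 in vehicle and between -1.45 and -1.24 in the TGF-β1 libraries. Counts of C1s1 may include reads shared with its close paralog and are uncertain. Nearest to Fbln2, the tested gene of the set with the largest rise with DMSO, were Msn (0.198), Kalrn (0.236) and Arhgap42 (0.249). The levels were not scaled for the size of a gene's change, so distances cannot be compared between Efemp1 and Fbln2. The centred log2 level of Fbln2 was -0.59 and -0.81 in vehicle and between -0.05 and 0.52 in the TGF-β1 libraries.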

How the data were processed

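RNA-seq libraries were made from rRNA-depleted RNA, and the authors mapped single-end reads to mm10 with Subjunc (Subread 1.6.4) and deposited raw counts per Gencode M20 gene from featureCounts. The submitters' processing notes also name DESeq2 1.22.2 and R 3.6.1. Samples were grouped by their labels. Of the 54752 identifiers, 54723 matched a symbol. The filter of the study's methods kept genes that reached 10 CPM in more than 3 libraries, and Fbln1 and Mfap5, which failed this, were taken from a fit with filterByExpr. All 6 libraries entered a single fit of the quasi-likelihood test of edgeR 4.0.16 under R 4.3.3 (scaled by TMM, group only, 3 residual degrees of freedom, log2 CPM with a prior count of 1), where a call was a Benjamini-Hochberg adjusted p below 0.01 with a fold change above 2. The SE is the log2 fold change divided by the square root of F. The pipeline was tested on simulated data. DESeq2 1.42.0 was an alternative.

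The members and lists were chosen with earlier results of these data known. The genes named are all 10 members, the accessory genes called in a comparison, Acta2, and the 3 genes nearest to Efemp1 and to Fbln2. The other accessory genes and the cell type markers named were chosen after their values were seen. Replicates of a group were different libraries (chi-square per degree of freedom 5.09 to 52.7). Library depth was 18362378 to 24452153 counts, and floors of 3 counts cover counting error only. Alternatives were DESeq2, its size factors, 3 other filters, only the 2 groups compared, the replicate block, other thresholds, length offsets (lowess of span 0.3) and each library left out, applied to the accessory genes after the data were seen. Promoters are from RefSeq (7 of the 10 genes matched), searched over 250 bases. The proteins of the members were not analysed here.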

Additional observations from a re-analysis of the deposited data

How the results depend on the processing

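Of the alternative results, 282 kept their direction and their side of the threshold, 6 newly passed it, 10 lost it and 8 changed sign. These results include the comparisons of Efemp1 with vehicle, which are a description. Leaving out each library in turn, the log2 fold change with DMSO against vehicle ranged from -1.93 to -1.45 for Fbln5 and from 0.64 to 1.17 for Fbln2. With BI6727 against vehicle, it ranged from -2.48 to -2.40 for Fbln5 and from 1.08 to 1.30 for Fbln2. Signs changed in some of the fits without 1 library for Efemp2, whose log2 fold change ranged from -0.11 to 0.046 with DMSO against vehicle (0.029 without vehicle replicate 1), from -0.11 to 0.053 with BI6727 against DMSO (and was 0.0093 with the length offsets) and from -0.13 to 0.0067 with BI6727 against vehicle. They also changed for Efemp1 with BI6727 against DMSO (-0.16 to 0.048) and for Fbn1 with DMSO against vehicle (-0.098 to 1.27) and with BI6727 against DMSO (-0.81 to 0.56). With filterByExpr, which tested 33 of the accessory genes, 5 were called lower with DMSO against vehicle, where 3.23% of all tested genes were. With BI6727 against vehicle 6 were called lower, where 3.71% were. Shares of all genes called higher were not computed for the other filters, so those counts are not given. Leaving out libraries gave 1 to 4 called higher and 1 to 4 called lower with DMSO against vehicle, 0 to 1 higher with BI6727 against DMSO and 1 to 3 higher with BI6727 against vehicle. The cause was not tested. A group left with 1 library is assumed to vary like the others.

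Nothing in the labels links same-numbered libraries of different groups beyond the number. Their deviations correlated at -0.11 for vehicle and DMSO, -0.258 for DMSO and BI6727, and 0.0466 for vehicle and BI6727. Whether libraries of different groups shared a batch cannot be told from these values and was not tested. With the replicate block and Efemp1 left out, Fbln5 was called lower and 0 members higher with DMSO against vehicle, as without the block. Between BI6727 and DMSO 0 were called, and with BI6727 against vehicle Fbln2 was called higher and Fbln5 lower, also as without it. The crossed replicate block, chosen after seeing the data, gave the same calls. The main fit called 2.34% to 2.96% of all tested genes in each direction against vehicle.

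With 2 libraries a group, precision is limited by the spread of the DMSO replicates and, for Fbln1, by depth. Of counts between 1 and 20, 58.5% to 59.9% were even by library. Whether a fragment was counted more than once was not tested.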
